A study of Mus musculus with 6 samples.

Results

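Amyloid-beta is cut from the amyloid precursor protein and leaves the brain along several routes. Zinc peptidases degrade it, apolipoproteins bind it and carry it on lipid particles, and endocytic receptors of neurons, glia and brain vessels take it up or pass it toward the blood. ABC transporters load the apolipoproteins with cholesterol and phospholipid, and clathrin adaptors bring the receptors and their cargo into the cell. The 10 genes described here stand for these steps in the mouse brain: the apolipoproteins Apoe and Clu, the receptors Lrp1 and Sorl1, the clathrin adaptor Picalm, the lipid transporters Abca1 and Abca7, and the peptidases Ide, Mme and Ece1. They were chosen by name for their place in this pathway, with earlier results of these data known. They are the rows with these symbols among the 38087 genes of the deposited table. All 10 passed the filter on low counts, which left 16337 genes for the test.

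Brain RNA came from 3 wild-type (WT) mice and 3 mice that carried a single working copy of Sgo1 (Sgo1-/+), the gene of shugoshin, a guardian of the cohesin that holds sister chromatids together in mitosis. All mice were 24 months old and untreated, were labelled C57BL6 in strain and described as bred on that background, and each gave 1 library. The study used this line as a model of chromosome instability to ask how aged brains with error-prone mitosis differ from WT brains, and its frozen samples were described as cerebrum with cortex and hippocampus but without olfactory bulb, cerebellum and medulla. There was 1 male in each group, WT replicate 1 and Sgo1-/+ replicate 2, beside 2 females. The Sgo1 loss was present in every cell of the body, so a difference between the groups is not tied to a cell type. The WT libraries belong to run 258 and the Sgo1-/+ libraries to run 259, so an effect of genotype and an effect of the run cannot be told apart.

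Library totals lay between 11123917 and 12505561 estimated counts, and the values of a group are given below in the order of replicates 1, 2 and 3. Sgo1 itself was near the limit of detection in the brain, with estimated counts of 0, 7 and 0 in the WT libraries and 4, 2 and 0 in the Sgo1-/+ libraries, counts too low to show a difference (p = 1, exact two-sided permutation test). WT replicate 1 stood apart from the other 5 libraries and went against the description of the tissue. The summed normalized count of 8 cerebellum markers was 26906 in WT replicate 1 against 2716 to 3365 in the others, and all 8 were highest there. Brain stem markers gave 4018 against 33.4 to 79.7, with 9 of 9 highest in WT replicate 1. The marker lists were also chosen with earlier results of these data known. Markers of cortex and hippocampus summed to 7182 in that library and to between 44246 and 53164 in the others, and 7 of 8 were lowest there. Markers of the striatum, the dopamine-receiving part of the forebrain, summed to 4199.5 in WT replicate 1 and to between 14684 and 34475 elsewhere. The fold changes below are therefore given with and without WT replicate 1. In these bulk samples fewer cells of a type and less RNA per cell cannot be told apart.

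Of the 10 genes, 0 passed an adjusted p-value under 0.05 for Sgo1-/+ against WT in edgeR's quasi-likelihood test, which called 0% of all genes tested. DESeq2 and limma also called 0 of the 10, and over all genes they called 3 and 0. Abca7 was lower in Sgo1-/+ by the unadjusted test, and it was the only member with an unadjusted p-value under 0.05, a level that 2.04% of all genes tested reached in edgeR. It was also the only member whose WT and Sgo1-/+ libraries did not overlap, all 3 WT values lying above all 3 Sgo1-/+ values. The same holds for 3.57% of all genes, and the reverse, with Sgo1-/+ above WT, holds for 3.28%. Log2 fold changes (Sgo1-/+ against WT) were positive for 4 of the 10 genes and negative for 6, with a median of −0.05 beside −0.0007 over all genes tested. Without WT replicate 1 the median was 0.06 beside 0.01 over all genes. The adjusted p-value of each member in edgeR was 0.9999.

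**Figure D1:**
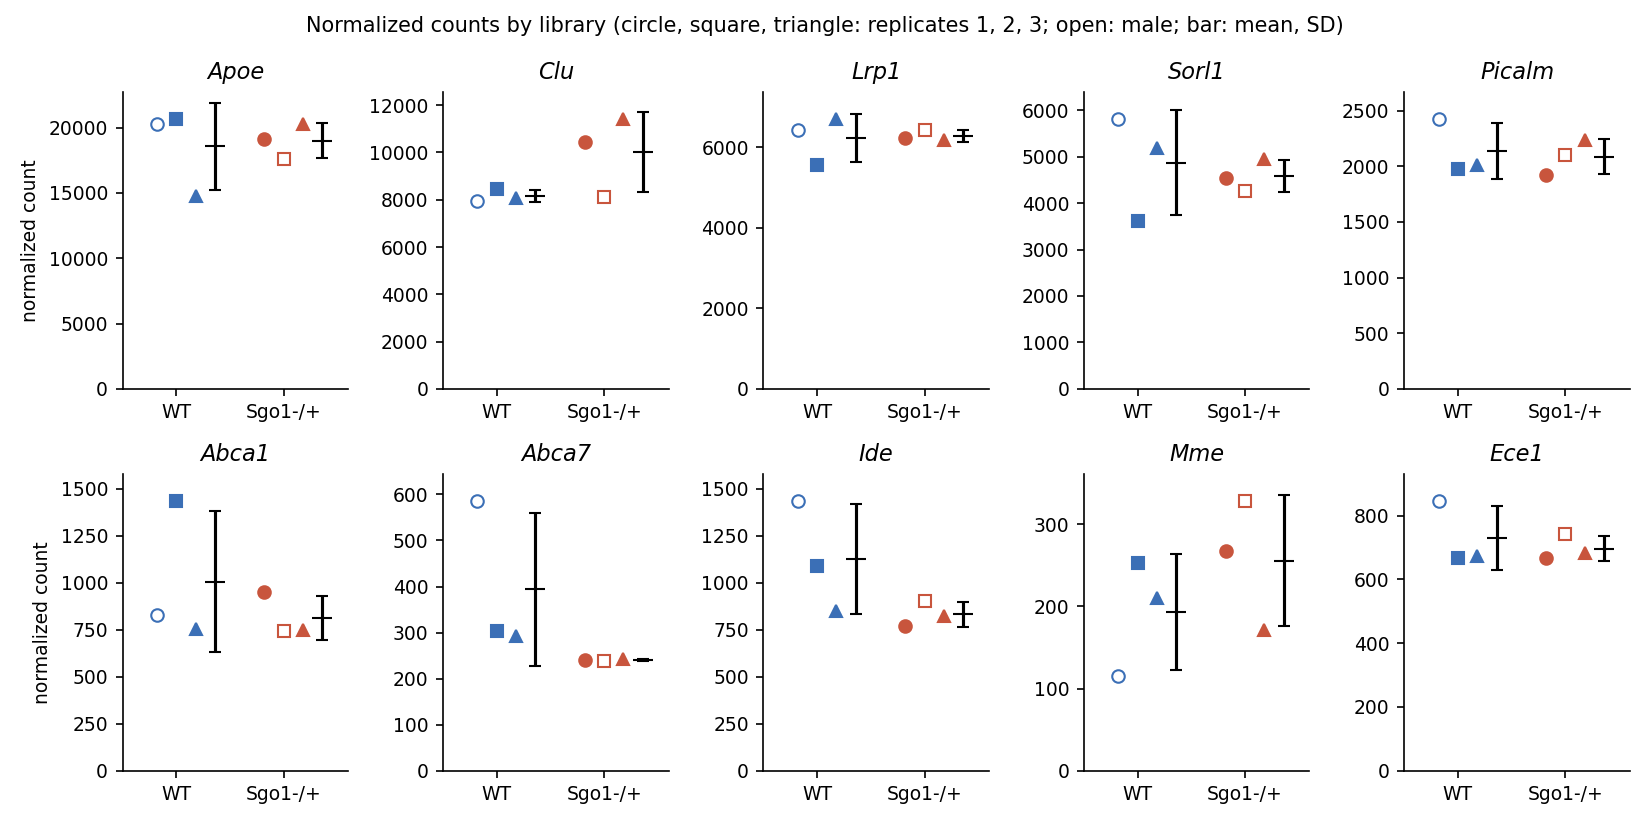
Normalized counts (vertical axes, each from 0) of the 10 genes in the 3 WT (blue) and 3 Sgo1-/+ (red) libraries. Circles, squares and triangles are replicates 1, 2 and 3, open symbols are males, and the bars give the mean and SD of each group; in Abca7 alone do all WT points lie above all Sgo1-/+ points, and WT replicate 1 is the highest point in Sorl1, Picalm, Abca7, Ide and Ece1.

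Apoe encodes apolipoprotein E, the main apolipoprotein of brain lipid particles, which is made mostly by astrocytes and also by microglia. Its gene (ENSMUSG00000002985) lies on the minus strand of chromosome 7 from 19696109 to 19699166 (mm10), a compact gene whose annotated transcripts cover 5 merged exons. Normalized counts, estimated counts scaled to a common library size, were 20282, 20663 and 14759.7 in the WT libraries, and 19131, 17598 and 20257 in the Sgo1-/+ libraries. WT replicate 3 was the lowest library, WT replicate 2 the highest, and the Sgo1-/+ values lay between them. The means were 18568 ± 3304 in WT and 18995 ± 1335 in Sgo1-/+ (SD, n = 3 each). The log2 fold change was 0.03 (SE 0.174), with a 95% confidence interval of −0.38 to 0.45, and 0.10 without WT replicate 1. On the fold scale the interval ran from 0.769 to 1.36, which is the size of change that these 6 libraries leave possible.

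Clu encodes clusterin, also called apolipoprotein J, an extracellular chaperone that binds amyloid-beta and travels on lipid particles. The gene (ENSMUSG00000022037) lies on the plus strand of chromosome 14 from 65968483 to 65981548. The WT libraries held 7953, 8468 and 8064 normalized counts, and the Sgo1-/+ libraries 10463, 8138 and 11417. Sgo1-/+ replicates 1 and 3, both females, lay above all WT libraries, whereas Sgo1-/+ replicate 2, the male, fell within the WT range. The mean was 8162 ± 271 in WT and 10006 ± 1686 in Sgo1-/+ (SD, n = 3 each). Clu had a log2 fold change of 0.29 (SE 0.157; 95% confidence interval −0.08 to 0.67), and 0.28 without WT replicate 1. Clu did not pass the threshold in edgeR (unadjusted p = 0.103). The exact two-sided permutation test gave p = 0.2, but with 3 libraries against 3 it cannot fall below 0.1 for any gene. Without Sgo1-/+ replicate 2 the log2 fold change was 0.42 and the unadjusted p in edgeR 0.0337. In that setting 230 of 16337 genes had an unadjusted p under 0.05. With any other library left out, the unadjusted p of Clu in edgeR lay between 0.112 and 0.323. Its adjusted p over all alternatives lay between 0.771 and 1. Clu was the member with the smallest relative spread in WT (coefficient of variation 3.32%), and the only one that varied more in Sgo1-/+ (16.9%) than in WT.

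Astrocyte markers, which mark the main source of both apolipoproteins, summed to between 54786 and 70132 in WT and between 55741 and 62378 in Sgo1-/+. The highest astrocyte sum was that of WT replicate 1, where Apoe was second and Clu lowest of the 6 libraries. Microglia markers summed to between 4516 and 5381 in WT and between 5490.3 and 6493 in Sgo1-/+, so these groups did not overlap, and WT replicate 1 had the lowest sum. The WT sums of replicates 2 and 3 were 5269 and 5381. All 8 microglia markers had positive log2 fold changes, with a median of 0.30, and 0.18 without WT replicate 1. Of the 8, 0 passed the adjusted threshold in edgeR, and Csf1r alone had an unadjusted p-value under 0.05, as 2.04% of all genes did. Groups did not overlap for 2 of the markers, both higher in Sgo1-/+, as for 3.28% of all genes tested. The part of these shifts in the values of Apoe and Clu was not tested.

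Lrp1 encodes a very large endocytic receptor that binds apolipoprotein E and amyloid-beta and works in neurons, glia and the cells of brain vessels. Its 88 merged exons span chromosome 10 from 127538161 to 127621148 on the minus strand (ENSMUSG00000040249). It had 6422, 5566 and 6705 normalized counts in the WT libraries and 6230.2, 6439 and 6178 in the Sgo1-/+ libraries. All Sgo1-/+ values fell inside the WT range, and the highest of the 6 libraries was 1.20-fold above the lowest, the narrowest range of any member. Group means were 6231 ± 593 in WT and 6282 ± 138 in Sgo1-/+ (SD, n = 3 each). The log2 fold change was 0.01 (SE 0.122), and its interval of −0.28 to 0.30 bounded the fold between 0.825 and 1.23. It was 0.03 without WT replicate 1.

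Sorl1 encodes a sorting receptor that keeps the amyloid precursor protein moving through the retromer route, away from the compartments where it is cut. The gene (ENSMUSG00000049313) lies on the minus strand of chromosome 9 from 41964720 to 42124297. Counts were 5809.9, 3612 and 5189.5 in the WT libraries and 4547, 4258 and 4945 in the Sgo1-/+ libraries. WT held both the highest library, replicate 1, and the lowest, replicate 2. The means of 4871 ± 1133 in WT and 4583 ± 344 in Sgo1-/+ (SD, n = 3 each) gave a log2 fold change of −0.09 (SE 0.190; 95% confidence interval −0.54 to 0.36). Without WT replicate 1 it was 0.06, so the direction turned. An antisense gene, Gm16214, shares 185 bases, 1.63% of the Sorl1 exon sequence, and since the kit does not mark strand, reads of this stretch cannot be told apart.

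Picalm encodes a clathrin assembly protein that takes part in forming coated vesicles at the cell surface, including the uptake of Lrp1 with amyloid-beta in brain vessels. It lies on the plus strand of chromosome 7 from 90130232 to 90209447 (ENSMUSG00000039361). Picalm had 2424, 1971 and 2008 normalized counts in the WT libraries and 1921, 2100.4 and 2232 in the Sgo1-/+ libraries. WT replicate 1 was highest and the groups overlapped. The means were 2134 ± 252 in WT and 2084 ± 156 in Sgo1-/+ (SD, n = 3 each), with a log2 fold change of −0.03 (SE 0.126; 95% confidence interval −0.33 to 0.27), and 0.07 without WT replicate 1.

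Abca1 and Abca7 encode related ABC transporters. Abca1 passes cholesterol and phospholipid to apolipoproteins and so determines how well apolipoprotein E is lipidated, and Abca7 moves phospholipids, has been linked to uptake of particles by phagocytes, and is a risk gene of Alzheimer's disease in people. Abca7 (ENSMUSG00000035722) lies on the plus strand of chromosome 10 from 79996494 to 80015572, and Abca1 (ENSMUSG00000015243) on the minus strand of chromosome 4 from 53030787 to 53159895. The 250 bases before the annotated start of each are shown because Abca7 was the member whose groups did not overlap and Abca1 is its closest relative here (RefSeq, GRCm38.p6, chr10:79996244-79996493 on the plus strand and chr4:53159896-53160145 on the minus strand). Capitals mark matches, searched on both strands and free of overlap, to the GC box GGGCGG, the CCAAT box CCAAT, the TATA box TATAAA and the E box CACGTG:
Abca7: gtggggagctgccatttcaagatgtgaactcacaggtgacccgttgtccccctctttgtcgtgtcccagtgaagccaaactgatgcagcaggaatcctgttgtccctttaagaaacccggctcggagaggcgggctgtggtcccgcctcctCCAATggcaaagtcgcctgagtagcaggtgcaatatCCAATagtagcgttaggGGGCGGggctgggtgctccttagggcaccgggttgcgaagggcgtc
Abca1: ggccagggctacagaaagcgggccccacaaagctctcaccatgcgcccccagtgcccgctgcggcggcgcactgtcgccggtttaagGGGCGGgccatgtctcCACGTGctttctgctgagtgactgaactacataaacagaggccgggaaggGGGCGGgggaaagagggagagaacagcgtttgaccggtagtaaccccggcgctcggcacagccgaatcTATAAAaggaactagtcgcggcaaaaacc
The Abca7 stretch holds 1 GC box and 2 CCAAT boxes, whereas that of Abca1 holds 2 GC boxes, 1 TATA box and 1 E box. Among all 32851 promoters of the RefSeq table at this length, 32.7% hold the GC box, 33.8% the CCAAT box, 12.4% the TATA box and 6.02% this E box. The nuclear receptor motif AGGTCA, present in 14.0% of the promoters, was found in neither. The GC content was 58.8% for Abca7 and 61.6% for Abca1, against a median of 52.4%, and the stretches hold 12 and 20 CG pairs against a median of 6. The table held promoters of 9 of the 10 genes, all but Clu.

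Abca7 had 586, 303 and 293 normalized counts in the WT libraries and 241, 238 and 243 in the Sgo1-/+ libraries. WT replicate 1 stood far above the other WT libraries, and the Sgo1-/+ libraries lay close to each other, below all WT libraries. The Sgo1-/+ coefficient of variation was 1.19%, beside a common biological one of 25.9% over all genes. So close a match of 3 libraries does not fix the spread between mice. The mean was 394 ± 167 in WT and 241 ± 2.87 in Sgo1-/+ (SD, n = 3 each), and 298 in WT without replicate 1. This is a log2 fold change of −0.71 (SE 0.278; 95% confidence interval −1.37 to −0.05) and a fold of 0.611, with an unadjusted p of 0.0384 and an adjusted p of 0.9999 in edgeR. Without WT replicate 1 it was −0.31 (SE 0.122; 95% confidence interval −0.59 to −0.02), and the unadjusted p was 0.0379 in edgeR. By exact two-sided permutation p was 0.1, the lowest value that 3 libraries against 3 allow. With each library left out in turn, its log2 fold change lay between −0.88 and −0.31. The unadjusted p in edgeR was 0.0877, 0.0921 and 0.0837 without Sgo1-/+ replicates 1, 2 and 3. Abca7 passed no adjusted threshold in any alternative, the adjusted p lying between 0.763 and 1 across edgeR, DESeq2 and limma. Cerebellum and brain stem markers were also highest in WT replicate 1. In WT replicates 2 and 3 the cerebellum sums of 2955 and 2961 lay within the Sgo1-/+ range of 2716 to 3365, and the brain stem sums of 33.4 and 79.7 lay on either side of the Sgo1-/+ range of 37.8 to 61.9. Olfactory bulb markers, of another region that the dissection was to leave out, summed to 3166 and 3163 in WT replicates 2 and 3. Their sums were lower in each Sgo1-/+ library (2251, 1731 and 989.8) and in WT replicate 1 (2174). Abca7 had 303 and 293 in WT replicates 2 and 3, 241, 238 and 243 in the Sgo1-/+ libraries, and 586 in WT replicate 1. The part of these tissues in the values of Abca7 was not tested.

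Abca1 did not share this pattern. It had 828, 1437 and 754 normalized counts in the WT libraries and 949, 745 and 747 in the Sgo1-/+ libraries. WT replicate 2 stood above all others, and the other WT libraries lay among the Sgo1-/+ ones. The means were 1006 ± 375 in WT and 814 ± 117 in Sgo1-/+ (SD, n = 3 each), with a log2 fold change of −0.31 (SE 0.259; 95% confidence interval −0.92 to 0.31). It was −0.43 without WT replicate 1 and 0.04 without WT replicate 2, so its direction rested on that library.

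**Figure D2:**
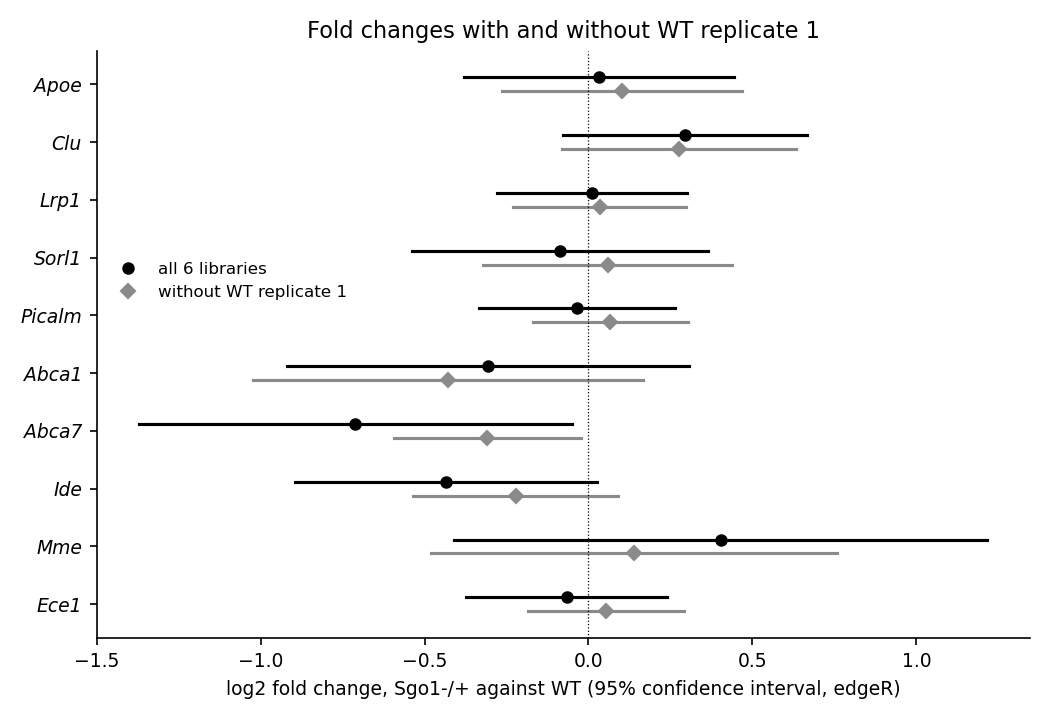
Log2 fold changes of the 10 genes, Sgo1-/+ against WT (horizontal axis), with their 95% confidence intervals from edgeR, over all 6 libraries (black circles) and without WT replicate 1 (grey diamonds). The intervals of Abca7 lie below 0 in both fits, those of the other 9 genes include 0 in both, and Sorl1, Picalm and Ece1 move from below to above 0.

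Ide encodes insulin-degrading enzyme, a zinc peptidase of the cytosol that also reaches the outside of the cell and cuts monomeric amyloid-beta. It lies on the minus strand of chromosome 19 from 37268743 to 37337852 (ENSMUSG00000056999). Normalized counts were 1437, 1088 and 852 in the WT libraries and 769.9, 903 and 825 in the Sgo1-/+ libraries. WT replicates 1 and 2 lay above all Sgo1-/+ libraries, and WT replicate 3 lay among the Sgo1-/+ values. The mean was 1126 ± 294 in WT and 833 ± 66.8 in Sgo1-/+ (SD, n = 3 each). Ide had a log2 fold change of −0.44 (SE 0.194; 95% confidence interval −0.90 to 0.03), with an unadjusted p of 0.0605 in edgeR and an exact two-sided permutation p of 0.2. It was −0.22 (95% confidence interval −0.53 to 0.09) without WT replicate 1. Without WT replicate 3 it was −0.60, with an unadjusted p of 0.00944 in edgeR. In that setting 1012 of 16337 genes had an unadjusted p under 0.05. With any other library left out, the unadjusted p of Ide in edgeR lay between 0.0849 and 0.159. The adjusted p of Ide over all alternatives was at least 0.763.

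Mme encodes neprilysin, a zinc peptidase of the cell surface and a main amyloid-beta-degrading enzyme of the brain. It was the least abundant member, with 115, 253 and 211 normalized counts in the WT libraries and 268, 329 and 171 in the Sgo1-/+ libraries. Its deposited coordinates are chromosome 3, 63295872 to 63382231, plus strand (ENSMUSG00000027820). WT replicate 1 was lowest, Sgo1-/+ replicate 2 highest, and the highest library was 2.85-fold above the lowest, the widest range of any member. The mean was 193 ± 70.5 in WT and 256 ± 79.6 in Sgo1-/+ (SD, n = 3 each). The log2 fold change of 0.40 (SE 0.343) had an interval of −0.41 to 1.22, and it was 0.14 without WT replicate 1. Striatum markers had the same lowest library and the same highest one, with sums of 4199.5, 17923 and 23247 in the WT libraries and 28718, 34475 and 14684 in the Sgo1-/+ libraries. The part of the striatum in the values of Mme was not tested.

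Ece1 encodes endothelin-converting enzyme 1, a membrane zinc peptidase of the same family as neprilysin. It lies on the plus strand of chromosome 4 from 137862237 to 137965229 (ENSMUSG00000057530). Counts were 847, 668 and 674 in the WT libraries and 666, 742 and 683 in the Sgo1-/+ libraries, and only WT replicate 1 lay outside the Sgo1-/+ range. The means were 730 ± 102 in WT and 697 ± 40.1 in Sgo1-/+ (SD, n = 3 each), with a log2 fold change of −0.07 (SE 0.129; 95% confidence interval −0.37 to 0.24), and 0.05 without WT replicate 1.

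Levels of different genes were compared per length, as CPM (counts scaled to a common library size, TMM-adjusted) per kb of merged exon. Apoe had a level of 728 ± 87.8 (SD over the 6 libraries), rank 18 among 16084 genes with a level, and Clu followed with 219 ± 35.6 at rank 98. Together they held 63.2% of the counts of the 10 genes, although they have the shortest exon sequence. The receptors came next, with levels of 34.6 ± 5.60 for Sorl1 and 29.3 ± 1.81 for Lrp1. Ece1 (11.2 ± 1.12), Picalm (11.1 ± 0.997) and Ide (10.8 ± 2.75) formed a middle tier, Abca1 (7.27 ± 2.16) and Abca7 (3.89 ± 1.65) were lower, and Mme was lowest with 1.61 ± 0.542. The level of Apoe was 452-fold that of Mme, and the level of Ece1 was 6.92-fold that of Mme.

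Neighbours in this order did not all differ beyond their spread. The ranges over the 6 libraries overlapped for Sorl1 and Lrp1, for Ece1 and Picalm, for Picalm and Ide, for Ide and Abca1, and for Abca1 and Abca7, while Apoe, Clu, the receptors as a pair and Mme were each separated from their neighbours. Sorl1 was above Lrp1, and Ide above Abca1, in each of the 6 libraries. WT replicate 1 decided the overlap of Abca1 and Abca7, since its Abca7 level of 7.19 was the only one above the lowest Abca1 level of 5.96. Without that library Picalm moved ahead of Ece1 and the order was otherwise kept. The annotated spans of Mme and Picalm are wider than the deposited ones, so their levels per length may be too low, and the place of Picalm beside Ece1 and Ide depends on this length. Taking the longest annotated transcript as the length put Ece1 behind Picalm and Ide.

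**Figure D3:**
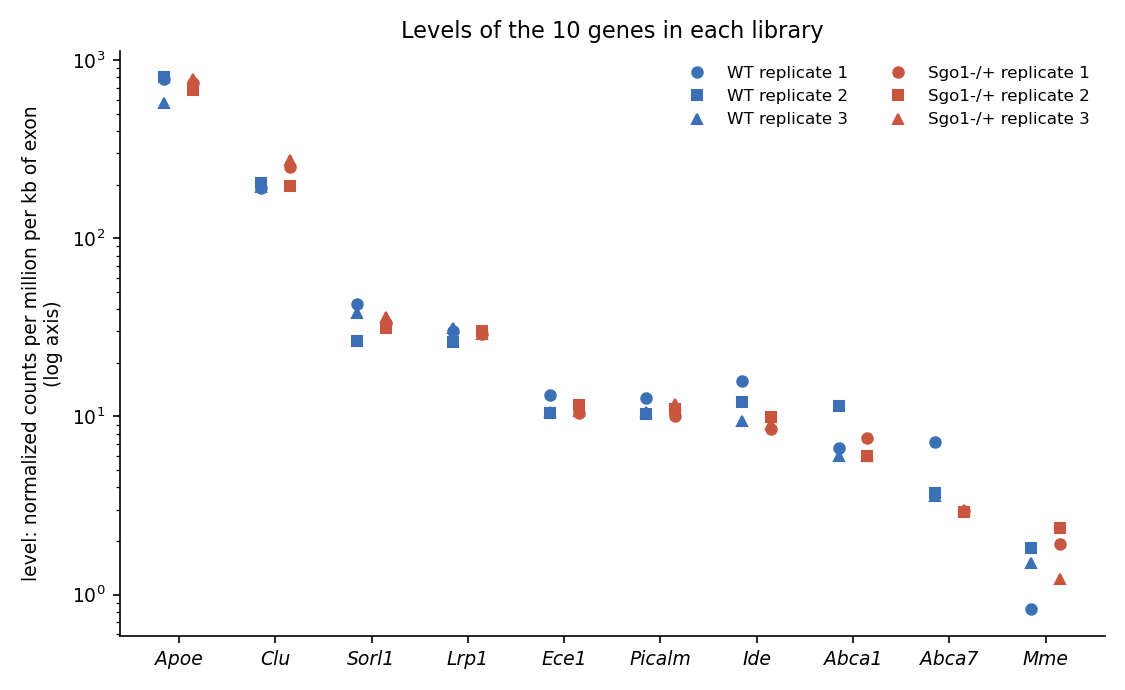
Level of each of the 10 genes in each library (vertical axis, CPM per kb of exon, log axis), ordered by their mean level, with WT in blue and Sgo1-/+ in red. Apoe and Clu stand apart at the top with levels of 572 to 801 and 192 to 275, and Mme lies at the bottom between 0.829 and 2.36.

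Apart from Abca7, no member had libraries ordered by genotype. WT replicate 1 was the highest library for Ide, Ece1, Sorl1, Abca7 and Picalm and the lowest for Clu and Mme. WT replicate 2 was highest for Apoe and Abca1 and lowest for Lrp1 and Sorl1. The share of all genes with these highest or lowest libraries was not computed. The coefficient of variation was larger in WT than in Sgo1-/+ for 9 of the 10 genes, and for 69.5% of all genes tested. Without WT replicate 1 it was larger in WT for 6 of the 10, a setting in which the share over all genes was not computed. Likeness between members was measured as the root mean square difference of their log2 ratios to their own mean over the 6 libraries. Ece1 and Picalm were closest to each other, at 0.07 on the log2 scale. Ide and Abca7, both high in WT replicate 1 and low in Sgo1-/+, were each other's nearest at 0.21, and they stayed so without WT replicate 1, at 0.13 over 5 libraries. Apoe and Lrp1 lay nearest to Picalm (0.17 and 0.12), Sorl1 to Lrp1 (0.16), Clu and Abca1 to Apoe (0.21 and 0.30) and Mme to Lrp1 (0.51), the most distant match. For Apoe, Clu, Lrp1 and Mme this difference was larger than the gene's own spread about its mean (0.170, 0.204, 0.084 and 0.491). For these genes the nearest member is therefore not a shared pattern. Without WT replicate 1 the nearest member of Apoe was Clu (0.18), that of Lrp1 and Mme was Ece1 (0.09 and 0.29), and that of Abca1 was Ide (0.27). There the difference exceeded the gene's own spread for Apoe (0.178 against 0.176) and for Ece1 with Picalm (0.072 against 0.058). These likenesses share libraries, depth and tissue composition, and they are descriptions.

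**Figure D4:**
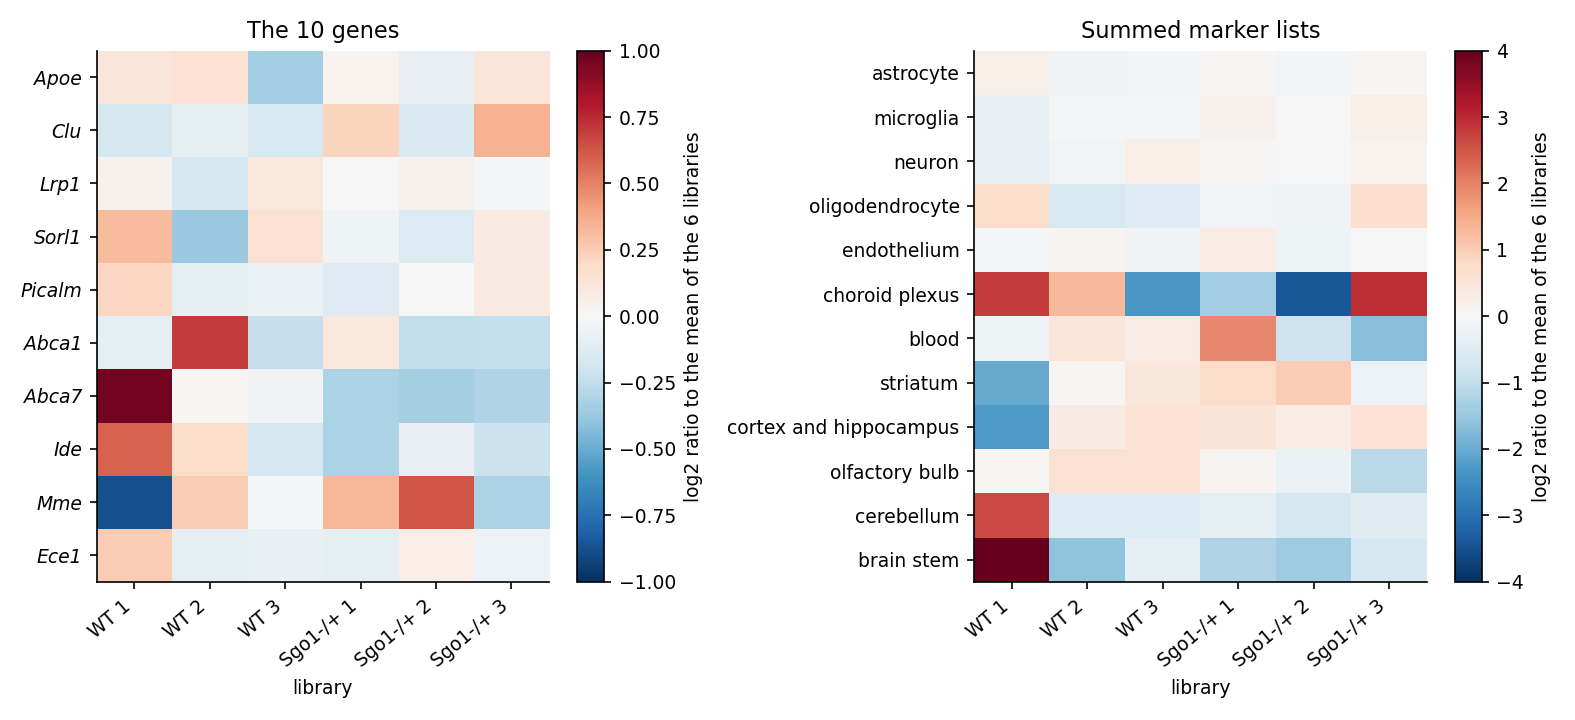
Log2 ratio of each library to the mean of the 6 libraries (colour), for the 10 genes (left) and for the summed counts of 12 marker lists (right, with a wider colour scale). WT replicate 1 is high for Abca7 and Ide and low for Mme on the left, and high for cerebellum and brain stem and low for striatum and for cortex and hippocampus on the right.

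All 7 olfactory bulb markers had negative log2 fold changes, with a median of −1.54, and −2.09 without WT replicate 1. Their sums overlapped between the groups, and 0 of the 7 had an adjusted or unadjusted p-value under 0.05 in edgeR. Other lists were as one-sided. All log2 fold changes were positive for oligodendrocyte markers (median 0.25, and 0.83 without WT replicate 1) and striatum markers (0.88 and 0.35). The same held for markers of cortex and hippocampus (0.47 and −0.02) and of blood (0.37 and 0.19). All 8 cerebellum markers (−2.79 and 0.25) and the 4 tested of 9 brain stem markers (−2.46 and −0.02) had negative ones. Of these, Cbln1 of the cerebellum list and Slc6a5 and Glra1 of the brain stem list had an unadjusted p-value under 0.05 in edgeR, as 2.04% of all genes did. In both lists 0 passed the adjusted threshold. Choroid plexus markers were highest in Sgo1-/+ replicate 3 (23694) and WT replicate 1 (21216), followed by WT replicate 2 (7526). They summed to between 294 and 1184 elsewhere. Oligodendrocyte markers were highest in WT replicate 1 (142976) and Sgo1-/+ replicate 3 (135482). They summed to 54784 and 59345 in WT replicates 2 and 3, below 79313 and 76816 in Sgo1-/+ replicates 1 and 2. Clu was lowest in WT replicate 1 and highest in Sgo1-/+ replicate 3. Blood markers summed to between 4024 and 6358 in WT and between 1393 and 17050 in Sgo1-/+, neuron markers to between 75398 and 112835 and between 96723 and 103876, and endothelium markers to between 3711 and 4415 and between 3637 and 5045. Their part in the members' values was not tested.

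A wider set of 72 genes from the same pathway, in 5 lists, was measured beside the 10. The filter on low counts left 64 of them, all but Mmel1, Plg, Apoa1, Apob, Apoh, Apom, Lrp2 and Ager, and 0 passed the adjusted threshold in edgeR. One gene, Mmp14, a membrane metalloprotease, had an unadjusted p-value under 0.05, which is 1.56% of the 64 beside 2.04% of all genes. Log2 fold changes were positive for 38 and negative for 26, with a median of 0.04, and also 0.04 without WT replicate 1.

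Among 12 tested genes of other amyloid-beta-degrading proteases, 6 had positive and 6 negative log2 fold changes, with a median of −0.01 (0.13 without WT replicate 1). Mmp14 had 195, 231 and 112 normalized counts in the WT libraries and 123, 90.2 and 119 in the Sgo1-/+ libraries, so the groups overlapped. The log2 fold change of Mmp14 was −0.69 (SE 0.291), and it had an unadjusted p of 0.0488 in edgeR and an exact two-sided permutation p of 0.3, and −0.63 without WT replicate 1. The lysosomal proteases Ctsd and Ctsb had the highest levels of this list, 191 and 122, and the level of Ctsd was 17.7-fold that of Ide and 119-fold that of Mme. Their log2 fold changes were 0.09 for Ctsd and 0.004 for Ctsb, and 0.27 and 0.06 without WT replicate 1.

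Of 8 tested genes of other lipoproteins and carriers, 3 were positive and 5 negative, with a median log2 fold change of −0.22 that became 0.15 without WT replicate 1. This list also counts App, the gene of the amyloid precursor protein, among its positive genes. Ttr, which encodes the carrier transthyretin and is made in the choroid plexus, had a level of 581. It ranged from 113 normalized counts in Sgo1-/+ replicate 2 to 21820 in Sgo1-/+ replicate 3. Ttr is itself among the 7 choroid plexus markers and made up most of their sum of 23694 in Sgo1-/+ replicate 3. Its range and the choroid plexus sums given above are therefore not independent. Apod, which encodes apolipoprotein D, had a level of 169, and the level of Apoe was 4.30-fold higher. Lpl, which encodes lipoprotein lipase, had groups that did not overlap, with 254, 490.3 and 482 normalized counts in the WT libraries and 513, 548 and 589 in the Sgo1-/+ libraries. Its log2 fold change was 0.43 (0.18 without WT replicate 1), with an exact two-sided permutation p of 0.1.

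Of 13 tested genes of other receptors, 9 were positive and 4 negative, with a median of 0.13 (−0.01 without WT replicate 1). Sort1, which encodes sortilin, a relative of Sorl1, had the highest level of this list, 75.7, which was 2.19-fold that of Sorl1, and Lrpap1, the chaperone of Lrp1, followed with 42.9. Sort1 had a log2 fold change of 0.28 and Lrpap1 of 0.13, and without WT replicate 1 these were 0.005 and 0.06.

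Of 12 transporters and their regulators, 6 were positive and 6 negative, with a median of 0.02 (0.14 without WT replicate 1). Abca2, a transporter of oligodendrocytes, had a level of 43.2, 5.94-fold that of Abca1, and Nr1h2, which encodes a liver X receptor and is an activator of Abca1, one of 13.6. Their log2 fold changes were −0.14 and −0.04, and 0.04 and 0.16 without WT replicate 1. Abcg1, which like Abca1 exports cholesterol, had groups that did not overlap, with 909.7, 817 and 893 normalized counts in the WT libraries and 932, 965 and 1018 in the Sgo1-/+ libraries. Its log2 fold change was 0.15 (0.19 without WT replicate 1), opposite in sign to those of Abca1 and Abca7, with an exact two-sided permutation p of 0.1. Lpl and Abcg1 were named after their values were seen, and were the only 2 of the 64 tested genes of the 5 lists with groups that did not overlap, both higher in Sgo1-/+, as were 3.28% of all genes.

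Of 19 partners in endocytosis and retromer sorting, 14 were positive and 5 negative, with a median of 0.04 and of 0.002 without WT replicate 1. Dnm1, which encodes the dynamin of synapses that pinches off coated vesicles, had a level of 207, and Ap2m1, a subunit of the clathrin adaptor AP2, one of 91.5, against 11.1 for Picalm. The log2 fold changes of Dnm1 and Ap2m1 were 0.05 and 0.14, and −0.04 and 0.01 without WT replicate 1.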

How the data were processed

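RNA-seq libraries of 6 brains were made with an unstranded kit and sequenced on an Illumina MiSeq. The authors aligned paired reads to mm10 in Strand NGS and deposited an estimated count per Ensembl gene and library, not normalized; the submitters' processing notes name BWA and edgeR, and the annotation release and strand setting are not given in the sources used here. The authors' own normalized values and comparison columns (4, with fold changes) were not used. Columns were matched to groups by the brain number and to replicates by the sample number in their names, and 0 columns of per-sample counts were left unmatched.

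Estimated counts (47.4% to 48.6% of values not whole) were rounded and tested with edgeR 4.0.16 in R 4.3.3 (quasi-likelihood test, TMM, default filter, no covariates, 16337 genes, Benjamini-Hochberg adjustment, threshold 0.05). The standard error is the log2 fold change divided by the square root of F. Normalized counts are counts over the TMM-scaled library size, times its mean. Levels divide by merged exon length of GENCODE's annotation of GRCm38, which holds 36308 of the 38087 IDs. Exact permutation tests ran over 20 groupings of the libraries. A gene listed at 0 may hold up to 3 counts, and this limit covers counting error only. The common biological coefficient of variation was 25.9%. Alternatives were DESeq2 1.42.0 with its size factors or its Wald test, limma 3.58.1 on log2 of normalized counts plus 1, no filter, a sex term, a block for the replicate number, leaving out each library, and for levels the longest transcript and the unscaled total; levels and likenesses without WT replicate 1 were added after seeing the data. The tests were first run on simulated data with a fixed dispersion and no library of differing tissue. That run does not show how they perform on these libraries.

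The members and all lists were chosen with earlier results of these data known. Named are all members, Sgo1, the 2 genes with the highest level and those with an unadjusted p under 0.05 in each of the 5 pathway lists, each member's nearest member, and markers that bear on a member. Replicates are separate mice by their labels.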

Additional observations from a re-analysis of the deposited data

How the results depend on the processing

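edgeR called 0 of 16337 genes and 333 at an unadjusted p under 0.05. DESeq2's Wald test called 3 genes, none a member (368 unadjusted; 27 genes had no adjusted p), and limma 0 (421 unadjusted). Without the filter edgeR called 0 of 26061 genes (563 unadjusted). With a library left out it called 0, and between 230.0 and 1012 unadjusted, 614 without WT replicate 1 and 1012 without WT replicate 3. Members called were 0 in every alternative run. The median log2 fold change of the members lay between −0.092 and 0.057 with a library left out, and it was above 0 only without WT replicate 1. Members whose groups did not overlap numbered 1 to 3 with a library left out: Clu, Sorl1, Apoe, Ide, Abca1 or Mme joined Abca7, whose groups leaving out a library cannot make overlap. In these settings the groups of 13.03% to 23.95% of all genes do not overlap. The 60 member values under the alternatives that kept all libraries kept their direction. With a library left out, 9 of 60 turned, in 6 genes, whose ranges were −0.11 to 0.12 for Apoe, −0.063 to 0.068 for Lrp1, −0.13 to 0.055 for Ece1, −0.26 to 0.059 for Sorl1, −0.48 to 0.041 for Abca1 and −0.088 to 0.067 for Picalm. The cause was not tested.

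With the longest transcript as length, levels were 1105 for Apoe, 416 for Clu, 16.3 for Ide, 2.31 for Mme, 12.3 for Ece1, 34.8 for Lrp1 and 21.3 for Picalm, because the length is shorter; the other 3 moved by less than their spread.

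With the replicate block, edgeR called 0 genes (280.0 unadjusted) and the median of the members was −0.04. Deviations of same-numbered libraries correlated at −0.15, 0.01 and −0.21 across genes, so the numbers were not taken to pair mice; the block changed no call.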
